A study of Mus musculus with 8 samples.

Results

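The transcripts described here encode 9 proteins that write, read or erase histone acetylation: the acetyltransferases Ep300, Crebbp, Kat2a and Kat5, the acetyl-lysine readers Brd2 and Brd3, and the deacetylases Hdac1, Hdac2 and Hdac3. They were taken from a table of 54838 mouse genes by the Ensembl ID that carries each symbol. The list was drawn up with earlier results of these data known, so the 9 genes are not an unselected draw. All 9 were found and passed the filter on low counts. The cells were male mouse iPSC, induced pluripotent stem cells (called ESC in the sample labels), and their poly(A) RNA was sequenced. They grew over irradiated feeders in medium with serum, LIF and the 2i inhibitors of MEK and GSK3, and 2 independent clones served as biological replicates. There were 4 states with n = 2 libraries each. Mitotic cells were arrested on gelatin for 6 h with nocodazole at 200 ng/ml and shaken off the dish. Early G1 cells were plated on gelatin after the arrest and collected 1 h after release, and late G1 cells 3 h after release. Asynchronous cells were not synchronised. Nocodazole blocks microtubule growth, so the mitotic, early G1 and late G1 cells had all been through the same drug arrest and the asynchronous cells had not. The design asks how transcript levels differ at the arrest, in the first hour after it and later in G1.

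Acetyltransferases transfer an acetyl group from acetyl-CoA to lysines in histone tails, bromodomain proteins bind the modified lysine, and deacetylases remove the group. Acetylated histones mark active promoters and enhancers, and in pluripotent cells this mark is part of the control of self-renewal genes. Transcription falls when cells enter mitosis and starts again as they leave it, and readers of the BET family, to which Brd2 and Brd3 belong, can stay on mitotic chromosomes.

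Total counts ran between 20410621 and 25615244 per library. The 2 mitotic libraries and the 2 asynchronous libraries differed more among themselves than the G1 pairs: the biological coefficient of variation was 0.183 in mitotic, 0.0506 in early G1, 0.0417 in late G1 and 0.292 in asynchronous cells. Replicate 1 of the mitotic group and replicate 1 of the asynchronous group deviated from their group means in the same direction (r = 0.64 over 10455 genes). With 2 libraries a group, this holds of replicate 2 in mirror image and does not tell which library stands apart, so results are also given below without both replicates 1 and without both replicates 2. Summed pluripotency markers (10 genes) were 6741 and 7052 CPM in mitotic, 6333 and 5994 CPM in early G1, 5773 and 5772 CPM in late G1 and 5479 and 7100 CPM in asynchronous libraries, with none of the 10 at 0. Fibroblast markers of the feeder cells (25 genes) summed to 1335 and 1177 CPM in mitotic, 1170 and 1162 CPM in early G1, 1126 and 1088 CPM in late G1 and 3092 and 3125 CPM in asynchronous libraries. Macrophage markers (10 genes) summed to 322 and 339 CPM in mitotic, 260.2 and 253 CPM in early G1, 276 and 265 CPM in late G1 and 239 and 310.4 CPM in asynchronous libraries. The feeder markers Dcn and Lum had 0 counts in mitotic replicate 1. Of the macrophage markers, Adgre1, Ptprc and C1qa had 0 counts in early G1 replicate 2, Lyz2, Adgre1, Tyrobp and C1qa in late G1 replicate 1, and Lyz2 in late G1 replicate 2. These marker levels moved with the state, and their part in the results below was not tested. In such bulk samples, fewer cells of a type and less RNA per cell cannot be told apart.

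The level of a gene in a library is given in CPM (library-size-scaled counts, by TMM), and a difference as a log2 fold change ± SE. A difference was called where edgeR's quasi-likelihood test, fitted to all genes and all 8 libraries, gave a Benjamini-Hochberg adjusted p under 0.05. All adjusted p are from that test unless another tool is named. Levels of different genes are compared per kilobase of exon, as RPKM. On this scale Kat2a stood first in mitotic cells with 69.5 ± 2.68 RPKM (SD, n = 2), followed by Hdac2 with 59.0 ± 2.46, Brd2 with 40.3 ± 2.77 and Hdac3 with 25.1 ± 1.33 RPKM. Brd3 had 18.8 ± 0.510, Hdac1 17.6 ± 1.15, Kat5 12.8 ± 0.795, Ep300 8.16 ± 1.98 and Crebbp 3.69 ± 0.0519 RPKM. The libraries of neighbours in this order overlapped only for Brd3 and Hdac1. In asynchronous cells the order was the same apart from Kat5 and Hdac1, which overlapped (12.1 ± 1.14 and 11.9 ± 0.859 RPKM). Early G1 cells differed in the top places: Brd2 had 60.3 ± 0.959 and Kat2a 59.7 ± 1.00 RPKM, which overlapped, and Hdac2 had 58.3 ± 0.159 RPKM. In late G1 cells Hdac2 stood first with 63.4 ± 0.214 RPKM, then Kat2a with 60.9 ± 2.49 and Brd2 with 54.2 ± 1.53 RPKM. Ep300 lay above Kat5 in early G1 (11.4 ± 1.09 against 10.4 ± 0.261 RPKM), and in late G1 these genes overlapped (11.7 ± 1.26 and 9.80 ± 1.44 RPKM). Crebbp was last in all 4 states, at between 2.56 and 3.69 RPKM on average. The place of Hdac1 in these orders is uncertain, because reads that fit it may be counted to a near-identical copy, Gm10093, described below.

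**Figure D1:**
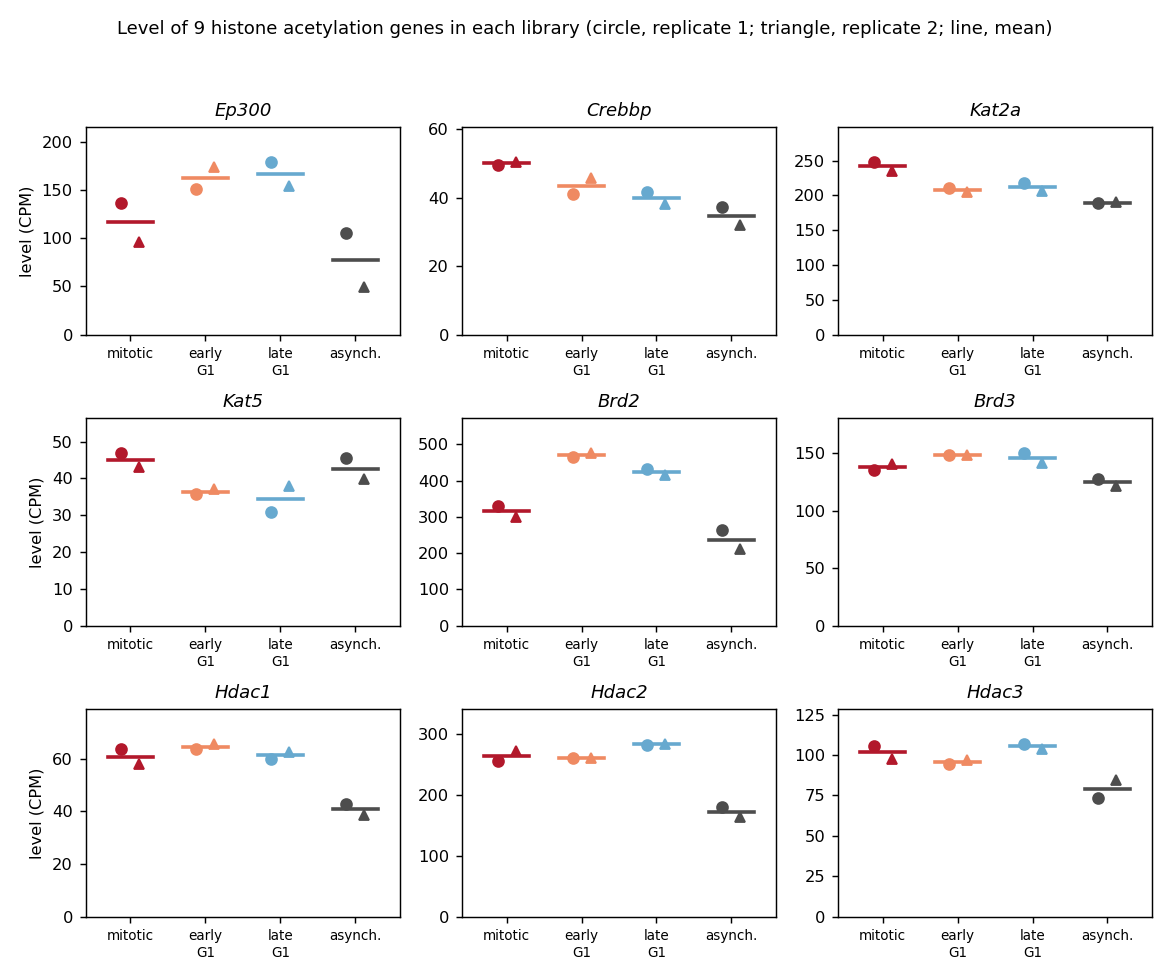
Level of each gene in CPM on an axis from 0, by state, with replicate 1 as a circle, replicate 2 as a triangle and the mean as a line. Ep300, Brd2, Hdac1 and Hdac2 lie higher in both G1 states than in asynchronous cells, and the 2 asynchronous libraries of Ep300 lie far apart (105 and 49.9 CPM).

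Against asynchronous cells, Hdac1, Hdac2 and Brd2 were higher in mitotic, early G1 and late G1 cells, and no gene of the 9 was called lower in any of these comparisons. In mitotic cells 6 of 9 were called higher than in asynchronous cells: Crebbp, Kat2a, Brd2, Hdac1, Hdac2 and Hdac3. Of all 19101 genes tested, 18.3% were called higher and 22.4% lower in that comparison, 40.7% in all. In early G1 cells 4 of 9 were called higher than in asynchronous cells (Ep300, Brd2, Hdac1 and Hdac2), where 21.3% of all genes were called higher, 24.7% lower and 46% in either direction. In late G1 cells 5 of 9 were called higher (the same 4 and Hdac3), where 22.7% of all genes were called higher, 26% lower and 48.7% in either direction. The 3 comparisons share the asynchronous libraries. In fits of the 2 groups alone, 1 of 9 was called for mitotic, 3 for early G1 and 3 for late G1 cells. Over all genes those fits called 3883, 5626 and 6469. The median log2 fold change of the 9 genes was 0.41 for mitotic, 0.32 for early G1 and 0.42 for late G1 cells against asynchronous cells, and over all genes it was -0.05, -0.03 and -0.03. Both mitotic libraries of 7 genes lay above both asynchronous ones, as did those of 30.9% of all genes, and none of the 9 lay below, against 34.4% of all genes. Both early G1 libraries of 8 genes lay above both asynchronous ones and those of Kat5 below, against 36.2% and 37.8% of all genes. Late G1 gave the same counts, against 36.8% and 38.1% of all genes. Feeder markers were called lower for 18 of 24 tested genes in mitotic, 19 in early G1 and 19 in late G1 cells, and macrophage markers higher for 4 of 9 in mitotic cells and lower for 5 in early G1 and 5 in late G1 cells. Pluripotency markers were called higher for 6 of 10 and lower for 1 in mitotic, 3 and 1 in early G1 cells and 3 and 1 in late G1 cells.

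After release from mitosis few of the 9 genes, and few of all genes, were called in the fit of all 8 libraries. That fit takes a common spread per gene over states whose replicates differed unequally. Fits of the 2 groups alone called 2759 of all genes for early G1 against mitotic cells and 3959 for late G1 against mitotic cells. For late G1 against early G1 the number was 1493. Of the 9 genes these fits called 1, 1 and 0. In early G1 against mitotic cells, 1 of 9 was called, Brd2, which rose; 3.21% of all genes were called higher, 1.42% lower and 4.63% in all. In late G1 against mitotic cells edgeR called 0 of 9 and DESeq2 also called 0, with 3 genes (Crebbp, Kat5 and Brd2) at an unadjusted p under 0.05. Of all genes, 5.43% were called higher, 4.04% lower and 9.48% in all. Between late G1 and early G1 edgeR called 0 of 9 and 0% of all genes, with 0 of 9 and 724 of all genes at an unadjusted p under 0.05, and DESeq2 called 0 of 9 and 26 of all genes. The median of the 9 genes was -0.02 for early G1 against mitotic, 0.05 for late G1 against mitotic and -0.03 for late G1 against early G1. Both early G1 libraries lay above both mitotic ones for 3 of the 9 genes and below for 4, against 30.9% and 30.9% of all genes. Both late G1 libraries lay above both mitotic ones for 4 and below for 3, against 32% and 32.3% of all genes, and above both early G1 ones for 2 and below for 2, against 24.4% and 25.9%. Macrophage markers were called lower for 7 of 9 tested genes in early G1 against mitotic cells, and feeder markers higher for 6 of 24. Of the 10 pluripotency markers, 0 were called in early G1 and 3 were called lower in late G1 against mitotic cells. Over all 4 states together, 3 of 9 were called different (Brd2, Hdac1 and Hdac2), as were 48.5% of all genes.

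More of the 9 genes were called when the same-numbered libraries of the mitotic and asynchronous groups were left out, whichever number was dropped; both choices were made with earlier results of these data known. Without both replicates 1, 8 of 9 were called for mitotic, 7 for early G1 and 8 for late G1 against asynchronous cells, all higher. Without both replicates 2, 7 were called higher in mitotic cells, and 7 were called higher and Kat5 lower in early G1 and in late G1 cells. In early G1 against mitotic cells 2 were called higher and 3 lower without replicates 1, and 2 and 2 without replicates 2. In late G1 against mitotic cells the counts were 2 and 2 without replicates 1, and 2 and 3 without replicates 2. Over all genes, 11700 and 11007 were called in these fits for mitotic against asynchronous cells, and 7918 and 7493 for early G1 against mitotic cells. For the remaining comparisons above, more of all genes were likewise called than with all 8 libraries, whichever number was dropped. The rise is therefore not particular to the 9 genes, and their counts are not read as a result about them. In both fits 2 states have a single library, whose spread is taken from the other states, and there are fewer residual degrees of freedom.

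The size of the Ep300 difference depended on which libraries were dropped. Ep300 was higher in mitotic than in asynchronous cells by log2 0.96 without replicates 1 (adjusted p = 1.06e-06) and by 0.37 without replicates 2 (adjusted p = 0.00666). Against mitotic cells it was higher by 0.75 and 0.26 in early G1 (adjusted p = 4.6e-06 and 0.0356) and by 0.78 and 0.29 in late G1 (adjusted p = 2.33e-06 and 0.0171). Brd2 was called higher in late G1 than in mitotic cells by 0.50 and 0.36 (adjusted p = 1.66e-08 and 8.75e-06). Lower than in mitotic cells in both fits were Kat5 in early G1 (-0.24 and -0.36, adjusted p = 0.0462 and 0.00284) and late G1 (-0.33 and -0.45, adjusted p = 0.00661 and 0.000273), Kat2a in early G1 (-0.18 and -0.25, adjusted p = 0.0232 and 0.00164) and Crebbp in late G1 (-0.34 and -0.30, adjusted p = 0.00201 and 0.00614). Crebbp in early G1 against mitotic cells was called only without replicates 1 (-0.22, adjusted p = 0.0497, against -0.18, adjusted p = 0.110), and Kat2a in late G1 only without replicates 2 (-0.22, adjusted p = 0.00456, against -0.15, adjusted p = 0.0551). Against asynchronous cells, calls gained in both fits were those of Brd3 in early G1 (0.29 and 0.21, adjusted p = 0.000306 and 0.0061) and late G1 (0.26 and 0.19, adjusted p = 0.000951 and 0.0156), Hdac3 in early G1 (0.19 and 0.39, adjusted p = 0.0241 and 1.23e-05), Crebbp in early G1 (0.45 and 0.22, adjusted p = 8.38e-05 and 0.0423) and Kat2a in late G1 (0.15 and 0.17, adjusted p = 0.0389 and 0.0250). Brd3 in mitotic cells (0.21 and 0.07, adjusted p = 0.0209 and 0.439) and Crebbp in late G1 (0.33 and 0.09, adjusted p = 0.0034 and 0.388) were called only without replicates 1. Kat5 in early and late G1 was called lower only without replicates 2 (-0.32 and -0.40, adjusted p = 0.00438 and 0.000437).

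**Figure D2:**
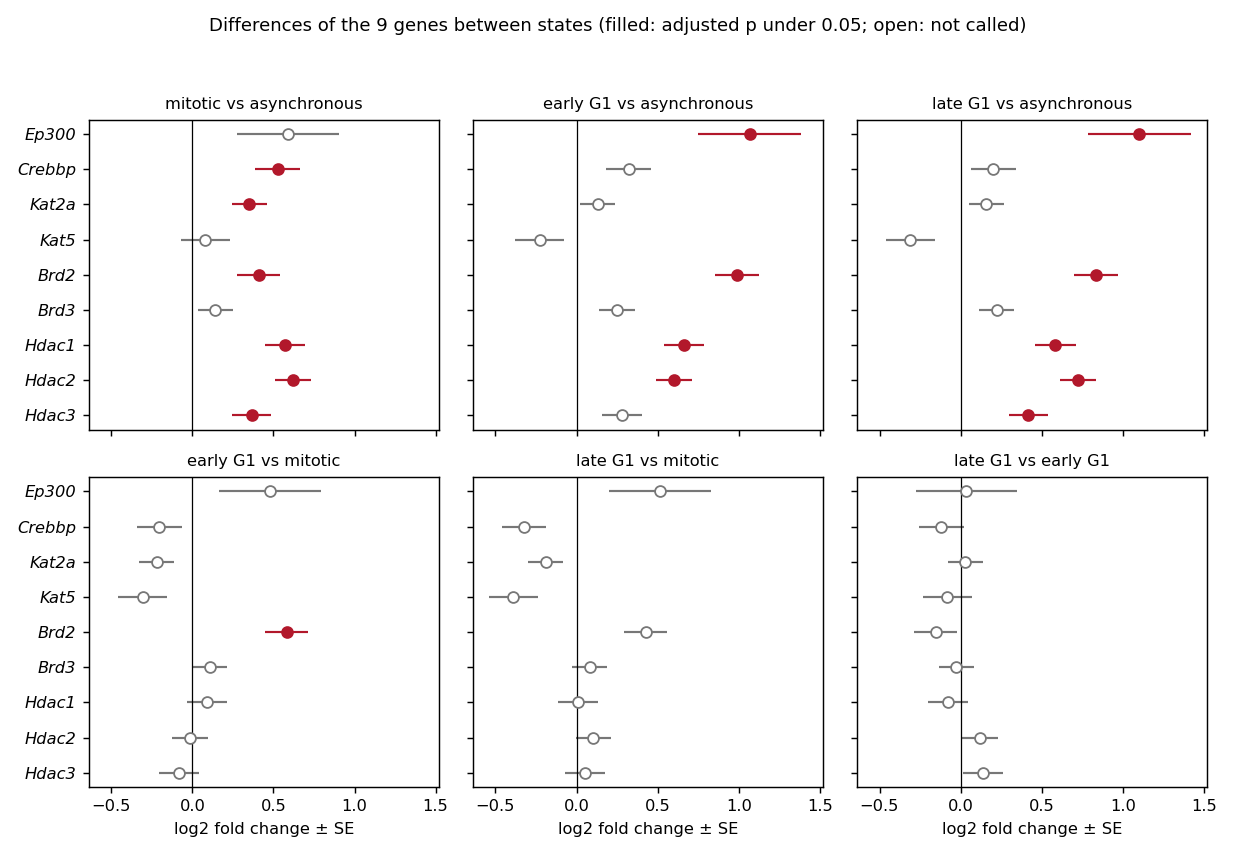
Log2 fold change ± SE of each gene (rows) in the 6 comparisons between states, with filled points at an adjusted p under 0.05 and open points not called. The upper panels share the asynchronous libraries; Brd2 is the 1 filled point in the lower panels, at 0.58 for early G1 against mitotic cells.

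Among the writers, Ep300 had the largest differences of the 4 from asynchronous cells and also the widest spread between replicates. Ep300 (chromosome 15, 81585351 to 81652077, plus strand, GRCm38), a coactivator that acetylates histones at enhancers, had 136 and 96.5 CPM in mitotic, 151 and 173 CPM in early G1, 179 and 154 CPM in late G1 and 105 and 49.9 CPM in asynchronous cells. Both G1 states lay above every mitotic and asynchronous library, while the mitotic and asynchronous libraries overlapped. It was 2.10-fold higher in early G1 than in asynchronous cells (log2 1.07 ± 0.32, adjusted p = 0.0250) and 2.15-fold higher in late G1 (log2 1.10 ± 0.32, adjusted p = 0.0211). The mitotic cells did not pass the test against asynchronous cells (log2 0.59 ± 0.31, adjusted p = 0.168), nor did early G1 against mitotic cells (0.48 ± 0.31, adjusted p = 0.398). The values turn on single libraries: without asynchronous replicate 1 the mitotic difference was 1.23 (adjusted p = 0.00203) and without asynchronous replicate 2 it was 0.15 (adjusted p = 0.569). Without mitotic replicate 1 it was 0.33, and without mitotic replicate 2, 0.83. Likewise, the early G1 difference from asynchronous cells was 1.71 without asynchronous replicate 1 and 0.63 without replicate 2, and the late G1 difference 1.74 and 0.66, all called. The early G1 call was lost without early G1 replicate 1 or 2 (adjusted p = 0.0664 and 0.115), and the late G1 call without late G1 replicate 1 or 2 (adjusted p = 0.104 and 0.0607). Against mitotic cells, early G1 differed by 0.75 without mitotic replicate 1 and by 0.25 without mitotic replicate 2, and late G1 by 0.78 and 0.28, none of them called; late G1 was called without asynchronous replicate 2 (0.51, adjusted p = 0.0463). In fits of 2 groups alone both G1 calls against asynchronous cells were lost (adjusted p = 0.0766 and 0.0625). With no filter on low counts Ep300 was called higher in mitotic than in asynchronous cells (0.61, adjusted p = 0.000934), and in early and late G1 than in mitotic cells (0.48 and 0.51, adjusted p = 0.0365 and 0.0178).

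Crebbp, the paralog of Ep300 (chromosome 16, 4081328 to 4213997, minus strand), had 49.5 and 50.5 CPM in mitotic, 41.1 and 45.6 CPM in early G1, 41.6 and 38.2 CPM in late G1 and 37.4 and 31.9 CPM in asynchronous cells. It was highest in mitotic cells, and in both G1 states it lay between the mitotic and the asynchronous libraries. It was 1.44-fold higher in mitotic than in asynchronous cells (log2 0.53 ± 0.14, adjusted p = 0.0177), a call lost without mitotic replicate 1 or 2 (adjusted p = 0.0612 and 0.0658) and in a fit of those 2 groups alone (adjusted p = 0.0985). Early G1 cells differed from mitotic cells by -0.20 ± 0.14 and late G1 cells by -0.32 ± 0.14 (adjusted p = 0.411 and 0.180). The late G1 difference was called without asynchronous replicate 1 (-0.33, adjusted p = 0.0358) or 2 (-0.32, adjusted p = 0.0351). Without asynchronous replicate 1, Crebbp was also called higher than in asynchronous cells in early G1 (0.45, adjusted p = 0.0126) and in late G1 (0.33, adjusted p = 0.0475).

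The promoters of Ep300 and Crebbp, whose ratio was higher in G1 libraries, are shown for comparison, each from 250 bases before to 50 after the RefSeq start (GRCm38.p6), 5′ to 3′ on the gene's own strand. Both starts lie inside the gene spans given above, not at their outer ends, and which start these cells use was not tested. Capitals mark GGGCGG on either strand, the GC box bound by SP and KLF factors, which 35.7% of the 32851 mouse promoter windows of that length hold.
Ep300, chr15:81585964-81586263, plus strand: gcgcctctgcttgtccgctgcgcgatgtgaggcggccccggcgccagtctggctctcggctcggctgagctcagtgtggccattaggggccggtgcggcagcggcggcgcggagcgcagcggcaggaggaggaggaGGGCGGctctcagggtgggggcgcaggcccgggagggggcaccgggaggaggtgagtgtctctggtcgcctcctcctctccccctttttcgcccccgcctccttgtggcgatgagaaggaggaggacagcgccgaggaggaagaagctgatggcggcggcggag
Crebbp, chr16:4213355-4213654, minus strand: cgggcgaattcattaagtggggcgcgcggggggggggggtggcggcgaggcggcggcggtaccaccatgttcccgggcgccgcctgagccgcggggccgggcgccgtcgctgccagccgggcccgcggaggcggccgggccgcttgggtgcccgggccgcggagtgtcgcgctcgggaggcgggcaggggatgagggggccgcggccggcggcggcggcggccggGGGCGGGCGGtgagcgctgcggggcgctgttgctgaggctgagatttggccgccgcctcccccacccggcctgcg
The Ep300 window holds 1 GC box and 30 CpG at 72.3% GC, and the Crebbp window 2 overlapping GC boxes and 49 CpG at 82.0% GC; the median over all windows is 7 CpG and 52.7% GC. Neither window held, on either strand, the NF-Y word CCAAT (in 37.4% of all windows), the E-box CACGTG (7.15%), the CREB word TGACGTCA (1.79%), the E2F words TTTCGCGC (0.323%) or TTTGGCGC (0.514%), the cell cycle element TTTGAA (17.9%), the ETS word CCGGAAGT (3.89%) or TATAAA (13.6%). The longer YY1 and NRF1 words, in 0.633% and 0.971% of all windows, were also not found.

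Kat2a, the catalytic subunit of the SAGA and ATAC coactivator complexes (chromosome 11, 100704746 to 100712465, minus strand), had 248 and 235 CPM in mitotic, 210.1 and 205 CPM in early G1, 218 and 206 CPM in late G1 and 188 and 191 CPM in asynchronous cells. It was highest in the mitotic libraries and lowest in the asynchronous ones, and no libraries overlapped except those of early and late G1. The mitotic level was 1.27-fold that of asynchronous cells (log2 0.35 ± 0.11, adjusted p = 0.0315). That call was lost without any 1 of the 6 mitotic, early G1 or late G1 libraries (adjusted p between 0.0656 and 0.122) and held without either asynchronous one. It was also lost with no filter on low counts (adjusted p = 0.0530) and in a fit of the 2 groups alone (adjusted p = 0.165). Early and late G1 cells differed from mitotic cells by -0.22 ± 0.11 and -0.19 ± 0.11 and were not called.

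Kat5, the acetyltransferase of the NuA4/TIP60 complex, which acts in DNA repair as well as transcription (chromosome 19, 5603014 to 5610237, minus strand), had 47.0 and 43.0 CPM in mitotic, 35.8 and 37.0 CPM in early G1, 30.8 and 38.0 CPM in late G1 and 45.4 and 39.7 CPM in asynchronous cells. Its G1 libraries lay below all mitotic and asynchronous ones. None of its comparisons was called (log2 -0.31 ± 0.15 for early G1 and -0.39 ± 0.15 for late G1 against mitotic cells, adjusted p = 0.270 and 0.146). Without asynchronous replicate 1 or 2 the late G1 difference from mitotic cells was called (-0.39 in both, adjusted p = 0.0351 and 0.0328), and without asynchronous replicate 2 the late G1 difference from asynchronous cells was called (-0.40, adjusted p = 0.0365). Exons of Kat5 overlap those of Rnaseh2c on the opposite strand: 9.83% of its 50-base words are found in another gene on either strand, and the strand setting of the counting is not given in the sources used here. Rnaseh2c had 485 to 1300 counts per library, against 676 to 1141 for Kat5.

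Between the readers Brd2 and Brd3, only Brd2 was called in the first hour after mitosis. Brd2 (chromosome 17, 34112023 to 34122634, minus strand), a BET protein with a pair of bromodomains that bind acetylated histone tails, had 331 and 300.1 CPM in mitotic, 466 and 477 CPM in early G1, 433 and 416 CPM in late G1 and 264 and 212 CPM in asynchronous cells. The states did not overlap, with early G1 highest and asynchronous cells lowest. It rose 1.50-fold in early G1 against mitotic cells (log2 0.58 ± 0.13, adjusted p = 0.0498), close to the threshold; this call was lost without any 1 of the 6 mitotic, early G1 or late G1 libraries (adjusted p between 0.137 and 0.349) and held by DESeq2 (adjusted p = 0.0122). In late G1 it stood 0.43 ± 0.13 above mitotic cells (adjusted p = 0.0830), called without asynchronous replicate 1 (0.42, adjusted p = 0.00367) or 2 (0.43, adjusted p = 0.00289), and differed from early G1 by -0.15 ± 0.13. Against asynchronous cells it was 1.98-fold higher in early G1 (log2 0.99 ± 0.13, adjusted p = 0.00101) and 1.78-fold higher in late G1 (0.84 ± 0.13, adjusted p = 0.00173), and both calls held without each library in turn. Mitotic cells were 1.33-fold higher (0.41 ± 0.13, adjusted p = 0.0400), a call lost without any 1 of the same 6 libraries (adjusted p between 0.0727 and 0.174); without asynchronous replicate 2 the difference was 0.26 and still called. It was lost too with upper-quartile scaling (adjusted p = 0.0508) and in a fit of the 2 groups alone (adjusted p = 0.151). The late G1 difference from mitotic cells was called with no filter on low counts (0.42, adjusted p = 0.0399) and in a fit of the 2 groups alone (0.45, adjusted p = 0.0131). On the opposite strand H2-DMa overlaps exons of Brd2; it had 34 to 67 counts per library, against 4176 to 12347 for Brd2.

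Brd3, its paralog (chromosome 2, 27445579 to 27507662, minus strand), had 135 and 141 CPM in mitotic, 148 and 149 CPM in early G1, 151 and 141 CPM in late G1 and 128 and 122 CPM in asynchronous cells. The order of the means resembled that of Brd2 on a smaller scale, and only the asynchronous libraries lay below all others. None of its differences was called: log2 0.14 ± 0.11 for mitotic, 0.25 ± 0.11 for early G1 and 0.22 ± 0.11 for late G1 against asynchronous cells (adjusted p = 0.325, 0.0924 and 0.122), and 0.11 ± 0.11 for early G1 against mitotic cells. Without asynchronous replicate 1 the early and late G1 differences from asynchronous cells were called (0.29 and 0.26, adjusted p = 0.0250 and 0.0367).

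The Brd2 and Brd3 promoters are shown because their transcripts differed in the size of the G1 difference. The Brd3 window is that of a RefSeq start inside the gene span given above, not at its outer end. Which start these cells use was not tested. Of 3 RefSeq start sites of Brd2, the one farthest upstream is given; capitals mark the NRF1 word in Brd2 and the GC boxes in Brd3, on either strand.
Brd2, chr17:34122558-34122857, minus strand: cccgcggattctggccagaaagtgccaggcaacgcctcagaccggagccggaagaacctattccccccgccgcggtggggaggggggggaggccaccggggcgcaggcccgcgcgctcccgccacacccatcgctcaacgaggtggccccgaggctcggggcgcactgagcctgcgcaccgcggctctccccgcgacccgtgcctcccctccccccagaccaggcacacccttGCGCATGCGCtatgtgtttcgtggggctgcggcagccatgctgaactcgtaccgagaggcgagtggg
Brd3, chr2:27475349-27475648, minus strand: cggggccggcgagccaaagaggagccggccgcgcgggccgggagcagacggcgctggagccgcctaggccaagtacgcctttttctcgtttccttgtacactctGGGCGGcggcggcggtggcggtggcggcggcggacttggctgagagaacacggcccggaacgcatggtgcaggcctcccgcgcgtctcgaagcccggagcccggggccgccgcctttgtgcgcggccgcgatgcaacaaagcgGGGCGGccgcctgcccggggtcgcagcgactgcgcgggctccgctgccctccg
The Brd2 window holds 1 NRF1 word and no GC box (32 CpG, 72.3% GC), and the Brd3 window 2 GC boxes and no NRF1 word (46 CpG, 75.0% GC). The other Brd2 windows each hold 1 GC box and no NRF1 word. None of the other words listed above was found in the Brd2 and Brd3 windows. RefSeq windows were matched for 7 of the 9 genes, 10 windows in all, and these matches describe letters only.

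Among the erasers, Hdac1 and Hdac2 were higher in all 3 synchronised states than in asynchronous cells, and Hdac3 in mitotic and late G1 cells. None of these 3 was called different after release. Hdac2, a class I deacetylase of the SIN3, NuRD and CoREST complexes (chromosome 10, 36974544 to 37001889, plus strand), had 256 and 272 CPM in mitotic, 262 and 260.5 CPM in early G1, 283 and 284 CPM in late G1 and 180.1 and 163 CPM in asynchronous cells. Every synchronised library lay above both asynchronous ones. It was 1.54-fold higher in mitotic (log2 0.62 ± 0.11, adjusted p = 0.00351), 1.52-fold in early G1 (0.60 ± 0.11, adjusted p = 0.00348) and 1.65-fold in late G1 cells (0.72 ± 0.11, adjusted p = 0.00139) than in asynchronous cells. These 3 calls held without each library in turn and under every other setting tried. After release it differed from mitotic cells by -0.02 ± 0.11 in early G1 and 0.10 ± 0.11 in late G1.

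Hdac3, the deacetylase of the NCoR and SMRT corepressor complexes (chromosome 18, 37935844 to 37955016, minus strand), had 105 and 97.8 CPM in mitotic, 94.7 and 97.0 CPM in early G1, 107 and 104 CPM in late G1 and 73.3 and 84.6 CPM in asynchronous cells. Its synchronised libraries also lay above both asynchronous ones, by less than those of Hdac2. It was 1.29-fold higher in mitotic (log2 0.36 ± 0.12, adjusted p = 0.0429) and 1.34-fold higher in late G1 (0.42 ± 0.12, adjusted p = 0.0224) than in asynchronous cells, and early G1 did not pass (0.28 ± 0.12, adjusted p = 0.0906). The mitotic call was lost without any 1 of the 6 synchronised libraries (adjusted p between 0.0744 and 0.160), and the late G1 call without any 1 of the 4 G1 libraries (adjusted p between 0.0522 and 0.125). The mitotic call was also lost with upper-quartile scaling (adjusted p = 0.0629), no filter on low counts (0.0677) or the 2 groups alone (0.177), and the late G1 call with the 2 groups alone (0.0856). The early G1 difference was called without asynchronous replicate 2 (0.38, adjusted p = 0.0100).

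Hdac1, the partner of Hdac2 in the same complexes (chromosome 4, 129516104 to 129542713, minus strand), was listed with 63.5 and 57.9 CPM in mitotic, 63.5 and 65.7 CPM in early G1, 60.1 and 62.4 CPM in late G1 and 42.9 and 38.7 CPM in asynchronous cells. The pattern is that of Hdac2, with all synchronised libraries above the asynchronous ones. It was 1.49-fold higher in mitotic (log2 0.57 ± 0.12, adjusted p = 0.00806), 1.58-fold in early G1 (0.66 ± 0.12, adjusted p = 0.00383) and 1.50-fold in late G1 cells (0.58 ± 0.12, adjusted p = 0.00590) than in asynchronous cells, the last call being lost without late G1 replicate 2 (adjusted p = 0.0570). The mitotic call was lost in a fit of the 2 groups alone (adjusted p = 0.0732). After release it differed from mitotic cells by 0.09 ± 0.12 in early G1 and 0.01 ± 0.12 in late G1.

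The level of Hdac1 is uncertain, because a processed pseudogene, Gm10093 (chromosome 17, 78491582 to 78493025, plus strand, 1444 bases), copies it with 99.4% identity (9 mismatches). Of the 1989 words of 50 bases, the read length, in the main Hdac1 transcript, 1121 (56.4%) are found unchanged in Gm10093, so such reads fit both places. The densest stretch of differences, 6 in 100 bases, shows how few positions separate them; it is given in the sense of the messenger, with the differing bases in capitals.
Hdac1, chr4:129522975-129523074, minus strand: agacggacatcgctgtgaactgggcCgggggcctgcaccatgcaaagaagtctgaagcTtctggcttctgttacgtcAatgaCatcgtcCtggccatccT
Gm10093, chr17:78491964-78492063, plus strand: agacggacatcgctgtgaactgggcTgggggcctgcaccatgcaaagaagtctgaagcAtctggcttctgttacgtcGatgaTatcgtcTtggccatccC
Gm10093 was listed with 382 and 326 CPM in mitotic, 349 and 336 CPM in early G1, 364 and 376 CPM in late G1 and 185 and 135 CPM in asynchronous cells. It therefore held 6.02 and 5.63 times the counts of Hdac1 in mitotic, 5.49 and 5.11 times in early G1, 6.07 and 6.03 times in late G1 and 4.30 and 3.49 times in asynchronous cells. How reads that fit both were counted is not given in the sources used here.

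Summing both, a choice made after the counts were seen, gave 446 and 384 CPM in mitotic, 412 and 401 CPM in early G1, 424 and 439 CPM in late G1 and 228 and 174 CPM in asynchronous cells. On the sum the difference from asynchronous cells was larger: 2.07-fold in mitotic (log2 1.05 ± 0.15, adjusted p = 0.00143), 2.02-fold in early G1 (1.02 ± 0.15, adjusted p = 0.00145) and 2.15-fold in late G1 cells (1.10 ± 0.15, adjusted p = 0.000861). After release the sum differed from mitotic cells by -0.03 ± 0.15 in early G1 and 0.06 ± 0.15 in late G1, neither called. A shorter copy, Gm4864 on chromosome 12 (97.2% identity over 290 bases), had 34.8 and 25.6 CPM in mitotic and 15.9 and 8.77 CPM in asynchronous cells. For each of the other 8 genes, at most 0.53% of the 50-base words are found in another gene on the same strand.

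**Figure D3:**
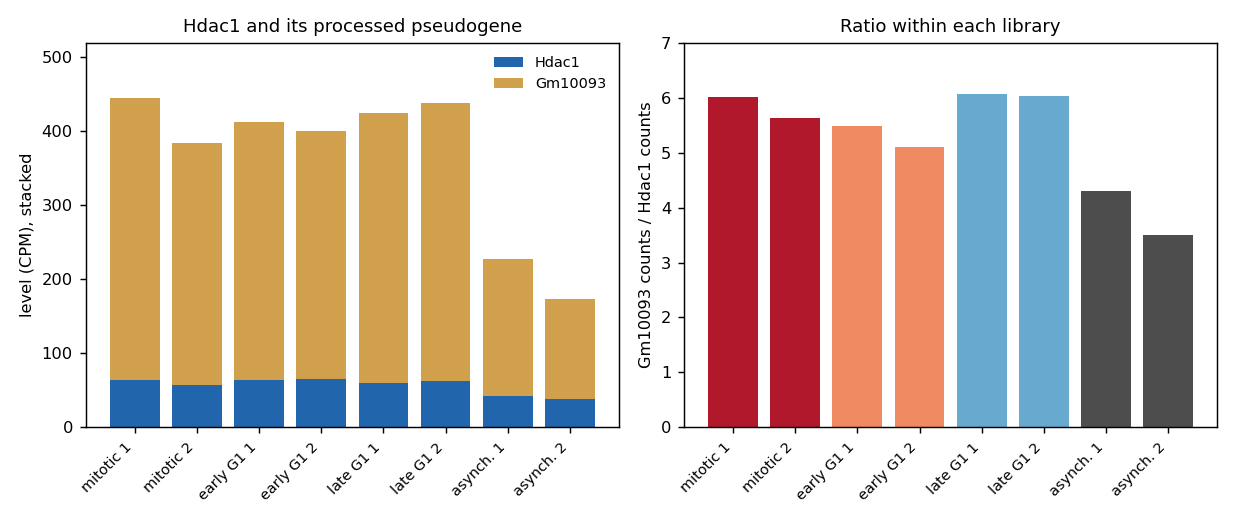
Left, CPM of Hdac1 (blue) and its processed pseudogene Gm10093 (tan) stacked for each library; right, the ratio of Gm10093 to Hdac1 counts in each library. The ratio is between 5.11 and 6.07 in the 6 synchronised libraries and 4.30 and 3.49 in the asynchronous ones.

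Ratios of related genes within a library do not depend on how libraries are scaled. The ratio of Ep300 to Crebbp per kilobase was 2.62 and 1.81 in mitotic, 3.50 and 3.60 in early G1, 4.09 and 3.81 in late G1 and 2.66 and 1.48 in asynchronous libraries. Both G1 states lay above every mitotic and asynchronous library without overlap. The ratio of Brd2 to Brd3 was 2.29 and 2.00 in mitotic, 2.95 and 3.00 in early G1, 2.69 and 2.76 in late G1 and 1.93 and 1.63 in asynchronous libraries, again without overlap between G1 and the rest. The ratio of Hdac2 to Hdac1 was 3.10 and 3.61 in mitotic, 3.17 and 3.05 in early G1, 3.63 and 3.51 in late G1 and 3.23 and 3.25 in asynchronous libraries, with overlap of the states. With Gm10093 added to Hdac1, the CPM ratio of Hdac2 to that sum was 0.57 and 0.71 in mitotic, 0.63 and 0.65 in early G1, 0.67 and 0.65 in late G1 and 0.79 and 0.94 in asynchronous libraries, highest in the asynchronous ones. These ratios are descriptions with no test.

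**Figure D4:**
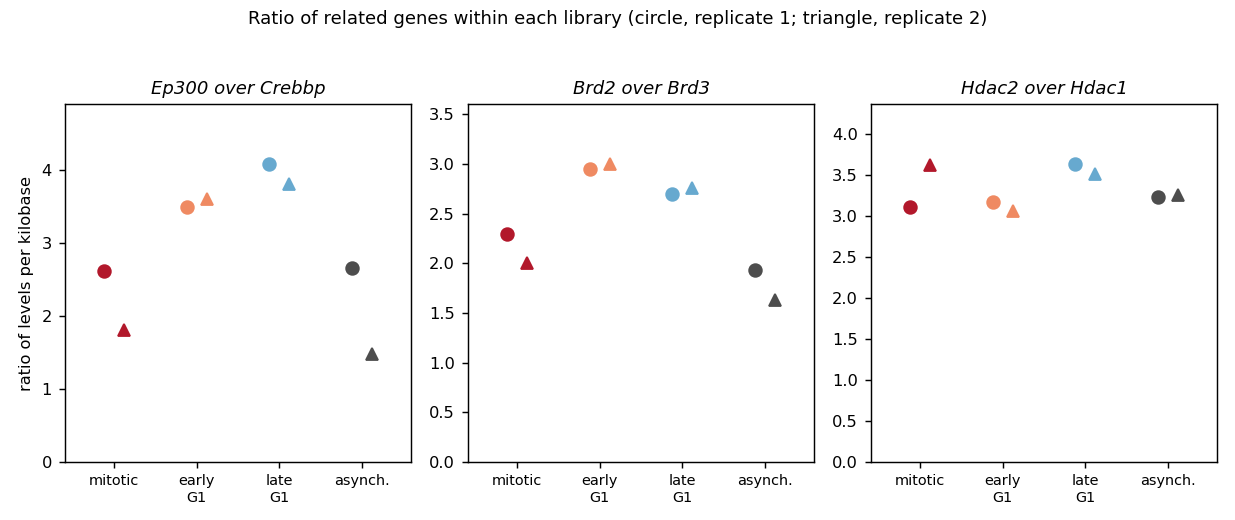
Ratio of levels per kilobase within each library on axes from 0, by state, with replicate 1 as a circle and replicate 2 as a triangle. Ep300 over Crebbp and Brd2 over Brd3 are higher in all 4 G1 libraries than in the mitotic and asynchronous ones, and Hdac2 over Hdac1 lies between 3.05 and 3.63 throughout.

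Across the 8 libraries, the 9 genes fell into different patterns, described here by Pearson's r of log2 CPM over libraries that share states and preparation. Hdac1 and Hdac2 varied together (r = 0.947), as did Brd2 and Brd3 (r = 0.945) and Ep300 and Brd2 (r = 0.926). Crebbp was closest to Kat2a (r = 0.855). Kat5 had a negative r with 6 others, between -0.644 (Brd3) and -0.305 (Hdac1), and an r of 0.194 with Crebbp and 0.180 with Kat2a. Among 10520 expressed protein-coding genes, those most like Ep300 were Adam9, Qser1 and Ankfy1 (r = 0.996, 0.995 and 0.995), those most like Brd2 were Zfp280b, Prpf38b and Syne2 (0.991, 0.989 and 0.988), and those most like Brd3 were Ccdc71l, Ube2q2 and Cenpj (0.981, 0.979 and 0.978). Hdac1 was most like Tle4, the acetyltransferase gene Kat2b and Akap8 (0.997, 0.997 and 0.996), Hdac2 most like Nmd3, Eif3j2 and Taf7 (0.997, 0.996 and 0.995), and Hdac3 most like Ak7, Smyd5 and Pygo2 (0.990, 0.979 and 0.976). Crebbp was most like Arhgap17, Usp46 and Ncoa6 (0.981, 0.977 and 0.976), Kat2a most like Trmt1, Nceh1 and Rhoa (0.991, 0.982 and 0.976) and Kat5 most like Chn1, Pip4k2a and Col5a3 (0.968, 0.953 and 0.941).

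The rest of the acetylation machinery, 141 further genes in 10 lists, was also mostly higher in synchronised cells where it was called. Against asynchronous cells, 48 were called higher and 15 lower in mitotic, 51 and 19 in early G1 cells and 52 and 29 in late G1 cells, with medians of 0.21, 0.29 and 0.30. These are 34% and 10.6% of the 141 genes in mitotic, 36.2% and 13.5% in early G1 cells and 36.9% and 20.6% in late G1 cells. Of all genes tested, 18.3% were called higher and 22.4% lower in mitotic, 21.3% and 24.7% in early G1 cells and 22.7% and 26% in late G1 cells, with medians of -0.05, -0.03 and -0.03. These background shares apply to each list below. In early G1 against mitotic cells 4 were called higher (2.84%, against 3.21% of all genes) and 2 lower (1.42%, as of all genes). In late G1 against mitotic cells 5 were called higher and 3 lower (3.55% and 2.13%, against 5.43% and 4.04% of all genes), and between late and early G1 edgeR called 0, DESeq2 0 and a fit of those 2 groups alone 4 higher and 15 lower. Without replicates 1, or without replicates 2, of the mitotic and asynchronous groups more of the 141 genes were called against asynchronous cells. The same held in early G1 against mitotic cells, and for all genes in each of these comparisons. Those fits take the spread of the single libraries from the G1 pairs, so their counts are not given here. The genes named below are, for each list and comparison, those called with the smallest p, at most 2 in each direction. Each named call was also tested under 19 other settings (scaling, filter, tool, replicate terms, libraries left out). Calls lost under any of them are given with the number of settings under which they held or the setting that lost them.

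**Figure D5:**
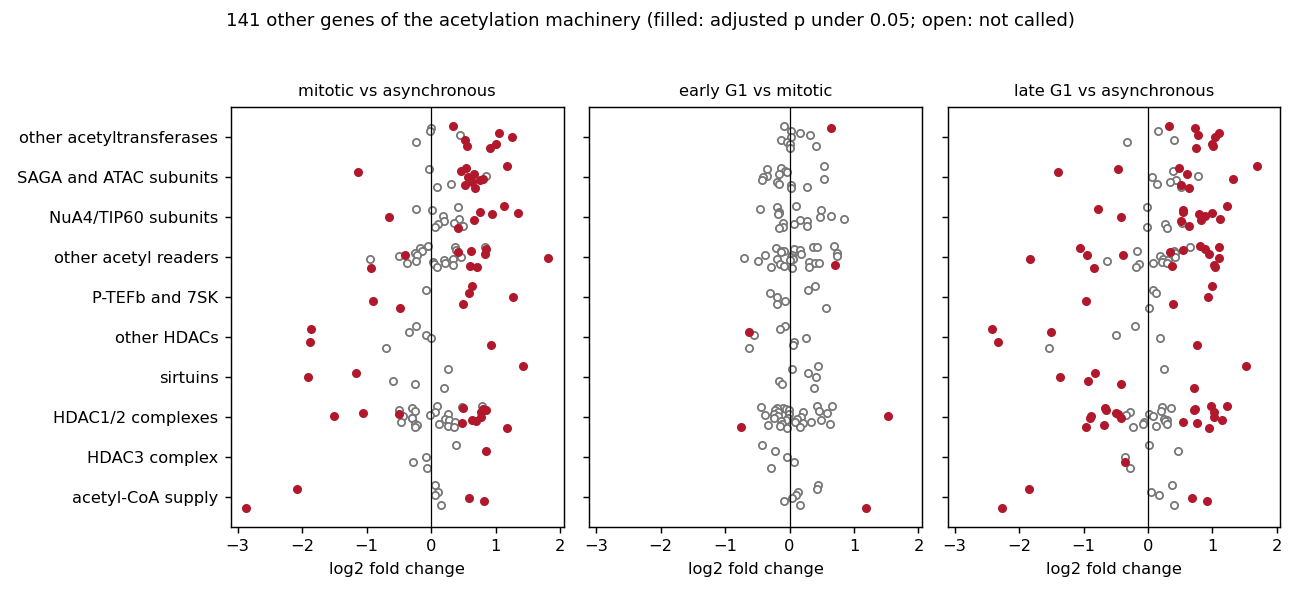
Log2 fold changes of 141 genes in 10 lists (rows) for mitotic against asynchronous, early G1 against mitotic and late G1 against asynchronous cells, filled where the adjusted p is under 0.05. Filled points lie mostly right of 0 in the first and last panels (48 higher and 15 lower, and 52 higher and 29 lower), and the middle panel holds 4 higher and 2 lower.

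Acetyltransferases other than the 4 above were called higher or not at all. Of 11, 7 were called higher in mitotic, 7 in early G1 and 8 in late G1 against asynchronous cells, and 0 lower, with medians of 0.53, 0.76 and 0.75. The shares called higher were 63.6%, 63.6% and 72.7%, against 18.3%, 21.3% and 22.7% of all genes. Naa40, which acetylates the amino end of histones, was higher by log2 1.01 in mitotic, 1.01 in early G1 and 0.99 in late G1 cells, and Ncoa3, a nuclear receptor coactivator, by 0.91 in mitotic cells. Kat2b, the paralog of Kat2a, was higher by 1.22 in early G1 and 1.10 in late G1 cells; 7.28% of its 50-base words occur in another gene. After release, Gtf3c4, a subunit of a transcription factor of RNA polymerase III, rose to 106 and 112 CPM in early G1 and 114 and 117 CPM in late G1, against 69.6 and 69.7 CPM in mitotic cells (log2 0.64 and 0.73, adjusted p = 0.0243 and 0.0109). These calls held under 13 and 15 of the 19 settings and were lost without either mitotic library or either library of the G1 state compared. The early G1 call was also lost without either late G1 library.

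Subunits of the SAGA and ATAC complexes, which carry Kat2a, were called higher for 10 of 15 in mitotic, 6 in early G1 and 6 in late G1 against asynchronous cells, and lower for 1, 1 and 2. The adaptor gene Tada2b was higher by log2 0.81 in mitotic, 1.34 in early G1 and 1.32 in late G1 cells, Tada2a by 0.58 in mitotic cells, and Dr1, a transcriptional corepressor that ATAC also contains, by 1.71 in early G1 and 1.69 in late G1 cells. Supt3 was lower by -1.13, -1.18 and -1.40 in the 3 states and Sgf29, a reader of methylated histone H3, by -0.46 in late G1. Against mitotic cells Tada2a fell in late G1 (-0.52, adjusted p = 0.0359), and no other member was called after release. That call held under 13 settings and was lost without any 1 of the 6 synchronised libraries (highest adjusted p = 0.290). The Sgf29 call held under 9 settings (highest adjusted p = 0.205), and without asynchronous replicate 2 the difference was -0.27 (adjusted p = 0.0981). The mitotic calls of Tada2b and Tada2a were lost in a fit of the 2 groups alone (adjusted p = 0.0519 and 0.0612), and those of Supt3 held under 17 settings in mitotic and 18 in early G1 cells, being lost without mitotic replicate 1 (adjusted p = 0.0733) and without early G1 replicate 2 (adjusted p = 0.0786).

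Of 17 subunits of the NuA4/TIP60 complex of Kat5, 6 were called higher in mitotic, 9 in early G1 and 10 in late G1 against asynchronous cells, and 1, 1 and 2 lower, while Kat5 itself was not called. The actin-related Actl6a was higher by log2 1.13, 1.23 and 1.23 in the 3 states, Epc2 by 1.36 in mitotic cells, and Morf4l2 by 0.83 in early G1 and 0.82 in late G1, with 11.2% of its 50-base words found in another gene. Meaf6 was lower by -0.66 in mitotic and -0.42 in late G1 cells, and Dmap1 by -0.69 in early G1 and -0.77 in late G1. The Dmap1 calls held under 14 and 16 settings (highest adjusted p = 0.161 and 0.102), and without asynchronous replicate 2 its differences were -0.33 and -0.42, still called. The Meaf6 calls held under 18 settings in mitotic and 12 in late G1 cells (highest adjusted p = 0.0768 and 0.160). None of the 17 was called after release.

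Of 29 other readers, 7 were called higher in mitotic, 10 in early G1 and 10 in late G1 against asynchronous cells, and 2, 3 and 5 lower. As shares these were 24.1%, 34.5% and 34.5% higher and 6.9%, 10.3% and 17.2% lower, against 18.3%, 21.3% and 22.7% of all genes higher and 22.4%, 24.7% and 26% lower. Brpf1, a scaffold of the MOZ and HBO1 acetyltransferase complexes, was higher by log2 0.83, 1.01 and 0.95, the neural BAF subunit Dpf1 by 1.82 in mitotic cells, and Taf1, the largest subunit of TFIID, by 1.04 in early G1 and 1.03 in late G1. Zmynd8 was lower by -0.93, -0.89 and -0.83, Brwd1 by -0.40 in mitotic and -0.36 in early G1 cells, and Dpf3 by -1.83 in late G1. After release Taf1 rose to 127 and 144 CPM in early G1 and 137 and 132 CPM in late G1, against 77.0 and 88.7 CPM in mitotic cells (log2 0.71 and 0.70, adjusted p = 0.0419 and 0.0293), and Brwd3 rose by 0.69 in late G1 (adjusted p = 0.0455). The Taf1 calls after release held under 12 and 13 settings (highest adjusted p = 0.344 and 0.207) and that of Brwd3 under 12 (highest adjusted p = 0.2445), all lost without any 1 of the 6 synchronised libraries. The Brwd1 calls held under 11 settings in mitotic and 10 in early G1 cells (highest adjusted p = 0.227 and 0.246).

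P-TEFb, the kinase that releases paused RNA polymerase II and that BET proteins recruit, and its inhibitory 7SK particle were called higher for 4 of 7 genes in mitotic, 2 in early G1 and 3 in late G1 against asynchronous cells, and lower for 2, 1 and 1. Hexim1, the inhibitor of P-TEFb, had 157 and 141 CPM in mitotic, 130.5 and 128 CPM in early G1, 118 and 118 CPM in late G1 and 61.8 and 61.9 CPM in asynchronous cells (log2 1.27, 1.07 and 0.93 against asynchronous cells). Its kinase subunit Cdk9 was higher by 0.59 in mitotic cells and the cyclin Ccnt1 by 1.03 in early G1 and 0.99 in late G1. Hexim2 was lower by -0.90, -0.96 and -0.96 and Mepce, which caps 7SK RNA, by -0.49 in mitotic cells. The Mepce call held under 12 settings and was lost without any 1 of the 6 synchronised libraries (highest adjusted p = 0.168); without asynchronous replicate 2 its difference was -0.32, still called. The Hexim2 calls held under 17, 18 and 18 settings and were lost without replicate 2 of the synchronised state compared (adjusted p = 0.0706, 0.0756 and 0.0604). The Cdk9 call was lost in a fit of the 2 groups alone (adjusted p = 0.0676).

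Deacetylases other than the 3 class I members above were called in both directions. Of 8, 1 was called higher and 2 lower in mitotic, 1 and 4 in early G1 cells and 1 and 3 in late G1 cells against asynchronous cells, with medians of -0.29, -0.80 and -1.01. The shares were 12.5% higher and 25% lower in mitotic, 12.5% and 50% in early G1 cells and 12.5% and 37.5% in late G1 cells, against 18.3% and 22.4%, 21.3% and 24.7%, and 22.7% and 26% of all genes. Hdac8, also of class I, was higher by log2 0.93, 0.99 and 0.76 in the 3 states. Hdac11, the class IV member, had 6.11 and 4.84 CPM in mitotic, 4.96 and 4.91 CPM in early G1, 3.65 and 3.80 CPM in late G1 and 20.3 and 19.7 CPM in asynchronous cells (log2 -1.87, -2.02 and -2.42). The class IIa gene Hdac7 was lower by -1.89 in mitotic and -1.81 in early G1 cells. Hdac4, also class IIa, had 32.9 and 34.7 CPM in mitotic, 21.1 and 22.6 CPM in early G1, 16.0 and 14.1 CPM in late G1 and 42.2 and 43.6 CPM in asynchronous cells. It fell in early G1 against mitotic cells (-0.63, adjusted p = 0.0431) and in late G1 against mitotic (-1.17, adjusted p = 0.00415) and asynchronous cells (-1.51). The call in early G1 against mitotic cells held under 12 settings and was lost without any 1 of the 6 synchronised libraries (highest adjusted p = 0.303), and that in late G1 against mitotic cells under 17, lost without either late G1 library (highest adjusted p = 0.0803). The Hdac8 calls held under 17, 18 and 16 settings (highest adjusted p = 0.0673, 0.0505 and 0.105). For Hdac4, 21.6% of its words occur in another gene when either strand is counted, and for Hdac11 15.3%. For genes named under other lists, this share was 12.9% for Pdha1, 10.6% for Sirt3, 10.1% for Actl6a and 10.0% for Tada2b.

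Of the 7 sirtuins, deacylases that use NAD, 1 was called higher and 2 lower in mitotic, 2 and 3 in early G1 cells and 2 and 4 in late G1 cells against asynchronous cells. The nuclear Sirt1 had 102 and 73.5 CPM in mitotic, 116 and 122 CPM in early G1, 91.6 and 95.4 CPM in late G1 and 44.4 and 20.7 CPM in asynchronous cells (log2 1.42, 1.86 and 1.52). Sirt7, found in the nucleolus, was higher by 0.58 in early G1 and 0.71 in late G1. The mitochondrial Sirt4 and Sirt3 were lower, by -1.90 and -1.17 in mitotic, -1.49 and -0.88 in early G1 cells and -1.36 and -0.82 in late G1 cells. The mitotic call of Sirt1 was lost without mitotic replicate 1 (1.18, adjusted p = 0.0634), and the early G1 call of Sirt7 held under 16 settings and was lost without either early G1 library (highest adjusted p = 0.0935).

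Partners of Hdac1 and Hdac2 in the SIN3, NuRD, CoREST and MiDAC complexes were called in both directions, more often higher in mitotic and early G1 cells. Of 34, 9 were called higher and 3 lower in mitotic, 11 and 4 in early G1 cells and 10 and 9 in late G1 cells against asynchronous cells. The shares called higher were 26.5%, 32.4% and 29.4%, against 18.3%, 21.3% and 22.7% of all genes. Those called lower were 8.82%, 11.8% and 26.5%, against 22.4%, 24.7% and 26%. Zmym3 was higher by log2 1.18, 1.14 and 0.95 in the 3 states, the NuRD subunits Gatad2a by 0.85 in mitotic and Mta2 by 0.95 in early G1 and 1.02 in late G1 cells. Lower were Ing2 by -1.05 in mitotic cells, Mta1 by -0.62 in early G1 and -0.88 in late G1, Sin3b by -0.56 in early G1 and Trerf1 by -0.96 in late G1. Mideas, a scaffold of the mitotic deacetylase complex MiDAC, had 19.1 and 18.5 CPM in mitotic, 52.7 and 55.4 CPM in early G1, 59.1 and 53.5 CPM in late G1 and 58.6 and 48.0 CPM in asynchronous cells. Both mitotic libraries lay below all others. It was lower than in asynchronous cells (log2 -1.50, adjusted p = 0.000267) and rose by 1.52 in early G1 and 1.58 in late G1 against mitotic cells (adjusted p = 0.00289 and 0.00220). Its homolog Trerf1 fell after release to 30.7 and 28.7 CPM in early G1 and 22.1 and 17.9 CPM in late G1, against 54.6 and 45.2 CPM in mitotic cells (-0.75 and -1.32, adjusted p = 0.0436 and 0.00496). Of the 5 partners of Hdac3, the corepressor Ncor1 was called higher in mitotic cells (0.85, adjusted p = 0.0352) and Tbl1x lower in late G1 cells (-0.35, adjusted p = 0.0455) against asynchronous cells, and none in early G1. The Ncor1 call held under 12 settings (highest adjusted p = 0.214): its difference was 1.34 without asynchronous replicate 1 and was not called without asynchronous replicate 2 (0.49, adjusted p = 0.0684), without mitotic replicate 1 (0.58) or without any 1 of the G1 libraries. The Tbl1x call held under 8 settings and was lost without any 1 of the 6 synchronised libraries and by DESeq2, among others (highest adjusted p = 0.220). The Trerf1 calls after release held under 13 and 16 settings and were lost without mitotic replicate 1 or either library of the G1 state compared. The early G1 call was also lost without mitotic replicate 2 or either late G1 library. In early G1 against asynchronous cells the Mta1 call held under 17 settings and the Sin3b call under 16, both lost without either early G1 library (highest adjusted p = 0.103 and 0.140); without asynchronous replicate 2 the Sin3b difference was -0.31, still called.

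Genes that supply acetyl-CoA were called in both directions: of 8, 2 were higher and 2 lower in mitotic, 3 and 2 in early G1 cells and 2 and 2 in late G1 cells against asynchronous cells. Slc25a1, which exports citrate from mitochondria for acetyl-CoA synthesis, had 37.2 and 39.5 CPM in mitotic, 88.6 and 85.2 CPM in early G1, 56.8 and 60.0 CPM in late G1 and 238 and 322 CPM in asynchronous cells. It was the most changed gene of the 141 in mitotic against asynchronous cells (log2 -2.87, adjusted p = 4.17e-05), rose by 1.18 in early G1 and 0.61 in late G1 against mitotic cells (adjusted p = 0.00889 and 0.0480) and stayed lower than in asynchronous cells in both (-1.69 and -2.26). The mitochondrial acetyl-CoA synthetase Acss1 was lower by -2.08, -1.66 and -1.85 in the 3 states. The pyruvate dehydrogenase subunits Pdha1 and Dld were higher, by 0.83 and 0.58 in mitotic, 0.75 and 0.62 in early G1 cells and 0.92 and 0.69 in late G1 cells. The Slc25a1 calls after release held under 15 and 12 settings and were lost without either mitotic library or either library of the G1 state compared. The late G1 call was also lost without either early G1 library and with RLE size factors. The Dld calls held under 17, 17 and 18 settings; the mitotic difference was 0.35 without mitotic replicate 2 (adjusted p = 0.103), and the others were lost without either early G1 library and without late G1 replicate 2 (highest adjusted p = 0.0785 and 0.0611).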

How the data were processed

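Poly(A) RNA of 8 libraries, 2 for each of 4 states, was sequenced from one end over 50 bases after a strand-preserving preparation, per the labels' protocols. The authors deposited raw counts per gene for 54838 Ensembl IDs, and TopHat2, SAMtools, HTSeq and mm10 are named per the submitters' processing notes. For the annotation release, the strand setting and reads that fit several places, the choice is not given in the sources used here. Symbols for 54723 IDs came from GENCODE M21. The 9 genes and the pathway lists were chosen with earlier results of these data known.

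With a minimum count of 10, filterByExpr kept 19101 genes, whose counts were scaled by TMM and tested with edgeR's quasi-likelihood F test (edgeR 4.0.16, limma 3.58.1, R 4.3.3) on all 8 libraries with no replicate block, leaving 4 residual degrees of freedom. All tests are two-sided with Benjamini-Hochberg adjustment over all genes tested. With 2 libraries a group, p-values measure only the spread between these libraries. The labels do not state that a replicate number marks a clone, so libraries were not paired. DESeq2 1.42.0, other scalings, no filter, fits of 2 groups alone, each library left out, a model term for (or removal of) the first mitotic and the first asynchronous library, removal of the second of each (added after the data were seen), and a replicate block were tried. The edgeR steps were checked on simulated data that had the same spread in all 4 states. That check does not cover the unequal spreads of these libraries. Near-identical copies were searched with BLAST 2.17.0 (at least 95% identity over 250 bases). From each pathway list the 2 called genes with the smallest p in each direction were named for each comparison, and for each of the 9 genes the 3 with the highest correlation. CPM and RPKM cover counting depth and exon length only, and counts per gene of the 9 ran between 630 and 12347.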

Additional observations from a re-analysis of the deposited data

How the results depend on the processing

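No called difference of the 9 genes or of the 108 named pathway values changed sign under the 19 alternatives run. Of the differences of the 9 genes that were not called, 10 changed sign under some alternative, all within 0.09 of 0 on the log2 scale with all libraries; that of Hdac1 in early G1 against mitotic cells ran between -0.03 and 0.16. The count of the 9 genes called for mitotic against asynchronous cells (6) ran between 2 and 7 with 1 library left out and was 1 in a fit of the 2 groups alone. For early G1 against mitotic cells (1) it ran between 0 and 1 with 1 library left out, and was 2 with no filter, 2 with a model term marking mitotic replicate 1 and asynchronous replicate 1 and 5 without those libraries, or 4 without replicates 2 in their place. For late G1 against mitotic cells (0) it ran between 0 and 4, and was 2 with no filter, 1 in a fit of the 2 groups alone, 2 with the term, 4 without those libraries and 5 without replicates 2. For early G1 against asynchronous cells (4) it ran between 3 and 6, and was 7 without them and 8 without replicates 2. For late G1 against asynchronous cells (5) it ran between 2 and 7, and was 3 in a fit of the 2 groups alone and 8 without either pair. Over all 4 states (3) it ran between 3 and 8, and was 5 with RLE size factors, 5 by DESeq2, 7 with the term and 9 without either pair. Summing Hdac1 with its copies changed no count. With each library left out or the 2 groups fitted alone there are fewer samples, and the cause of the other shifts was not tested. Without either pair the spread comes from the G1 pairs alone, so those counts leave out the spread within the mitotic and asynchronous groups. The same holds of the counts over all genes, which follow.

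Over all genes, the counts called moved by more than 1.5 times as follows. Mitotic against asynchronous cells (7767) gave 3883 in a fit of the 2 groups alone, 11700 without both replicates 1 and 4737 without mitotic replicate 1. Early G1 against mitotic cells (885) gave 2759 in a fit of the 2 groups alone, 2362 with no filter, 5882 with the term, 7918 without both, 7493 without both replicates 2 and between 42 and 4518 with 1 library left out. Late G1 against mitotic cells (1810) gave 3959, 3289, 6593, 8525 and 8172, and between 73 and 5546. Late G1 against early G1 cells (0) gave 1493, 58, 16, 1518 and 1505, 26 by DESeq2 and between 0 and 25. Early G1 against asynchronous cells (8784) gave 5626 in a fit of the 2 groups alone, 13517 without both and between 4186 and 11237. Late G1 (9305) gave between 5096 and 11489, and over all 4 states (9265) the count was 15268 without both, 14885 without both replicates 2 and between 6067 and 12556 with 1 library left out.

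With the replicate block the 9 genes gave 5 calls for mitotic against asynchronous cells (Hdac3 lost, adjusted p = 0.0570 by edgeR), 1, 0 and 0 for early G1 against mitotic, late G1 against early G1 and late G1 against mitotic cells, 4 and 5 for early and late G1 against asynchronous cells, and 4 over all states. Same-numbered libraries deviated together for mitotic and asynchronous cells (r = 0.636) and in opposite ways for early G1 and asynchronous cells (r = -0.430). Of the 108 named pathway values, 19 calls were lost in fits of 2 groups alone, 5 with no filter, 5 by DESeq2, 5 with the replicate block, 3 with RLE size factors and between 0 and 24 with 1 library left out. All intervals and tests rest on 2 libraries a group, and a difference that was not called is not shown to be absent.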
